A study of Danio rerio with 2 samples.

Results

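Cell barcodes of shield-stage zebrafish embryos were selected by raw transcript counts of *phlda3*, *sesn3*, *casp8*, *rgs20* and *chrna4b*. A barcode was a member when at least 2 of these 5 genes had at least 1 unique molecular identifier (UMI, a tag that marks 1 captured transcript). The rule selected 791 of 16773 barcodes, of which 272 of 7911 came from MZwnt11/slb embryos and 519 of 8862 came from wildtype embryos. All 15982 other barcodes served as the comparison, library by library.

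The study examined how cell fate and tissue rigidity change together at the onset of gastrulation. Whole embryos at the shield stage were taken apart in an acetic acid and methanol mixture that fixes the cells at once (ACME), stained cells were sorted, and 1 droplet library of transcript 3′ ends was made for each genotype. MZwnt11/slb embryos lack both the maternal and the zygotic supply of intact *wnt11f2*, a non-canonical Wnt ligand of convergent extension, through the tx226 allele of *slb*, and wildtype embryos came from the A2B2 strain. The sources used here do not give how many embryos or clutches entered a library, and no treatment was applied to either genotype.

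The MZwnt11/slb library held 40025626 UMIs and the wildtype library 37370253 UMIs, at a median of 4595 UMIs per barcode in MZwnt11/slb and 3874 in wildtype. The deposited values were raw UMI counts, and levels are given below as counts per 1000000 UMIs (CPM) of the barcodes that were summed. *wnt11f2* had 41.4 CPM in the MZwnt11/slb library and 99.3 CPM in the wildtype library, although a transcript tag cannot by itself show whether the allele is intact. With 1 library per genotype, genotype, clutch and library cannot be told apart and no test was made. All intervals are 95% intervals that cover counting error only. The libraries shared 16 barcode sequences, of which 0 were members in MZwnt11/slb and 2 were members in wildtype.

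When DNA is damaged, a cell transcribes a set of response genes. They stall the cell cycle (*cdkn1a*), favour mitochondrial apoptosis (*bbc3*, which encodes Puma, and *baxa*), damp growth signalling (the sestrins) and, through the ubiquitin ligase gene *mdm2*, switch the response off again. Stressed cells may instead raise other programmes, such as heat shock proteins or the response to unfolded protein in the endoplasmic reticulum, and an apoptotic cell uses caspases to dismantle itself.

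Of the rule genes, *phlda3* encodes a pleckstrin-homology protein that restrains Akt in mammals, *sesn3* a sestrin, *casp8* the initiator caspase of death receptors, *rgs20* a regulator of G-protein signalling and *chrna4b* a nicotinic acetylcholine receptor subunit. Their counts chose the members, so they are a description. *sesn3* was the broadest of them, with a UMI in 269 of 272 MZwnt11/slb members and in 508 of 519 wildtype members. *phlda3* had a UMI in 216 MZwnt11/slb and 368 wildtype members, and *casp8* in 110 MZwnt11/slb and 279 wildtype members. *rgs20* and *chrna4b* were scarcer, with *rgs20* in 47 MZwnt11/slb and 93 wildtype members and *chrna4b* in 7 MZwnt11/slb and 65 wildtype members.

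The most common combination was *phlda3* with *sesn3* and no other rule gene, in 131 MZwnt11/slb members and 175 wildtype members. Next came *phlda3*, *sesn3* and *casp8* together in 46 MZwnt11/slb members, and *sesn3* with *casp8* in 113 wildtype members. In MZwnt11/slb, 185 members had 2 rule genes, 71 had 3, 14 had 4 and 2 had all 5. In wildtype, 315 members had 2 rule genes, 151 had 3, 35 had 4 and 18 had all 5. Just outside the threshold lay 623 MZwnt11/slb and 990 wildtype barcodes with 1 rule gene, of which 508 and 786 had *sesn3* alone.

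Members made up 3.44% (3.05 to 3.86) of MZwnt11/slb barcodes and 5.86% (5.38 to 6.37) of wildtype barcodes. The chance of seeing at least 2 rule genes grows with depth, and the median member had 5090 UMIs against 4580 in other barcodes of MZwnt11/slb, and 4477 UMIs against 3844 in wildtype. When each barcode was first thinned to 2944 UMIs and the rule was applied afterwards, the shares were 2.55% (2.19 to 2.95) in MZwnt11/slb and 4.30% (3.83 to 4.82) in wildtype. Thinning left out 1055 MZwnt11/slb and 2215 wildtype barcodes that were too shallow. The wildtype share was thus the higher before and after thinning, in a single library of each genotype.

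The mitochondrial share, which is often high in damaged cells, had lower medians in members. The median mitochondrial share of UMIs was 5.01% in members and 5.38% in other barcodes of MZwnt11/slb, and 5.58% in members and 5.97% in other barcodes of wildtype. More than 10% mitochondrial UMIs were found in 41 of 272 members and 1551 of 7639 other barcodes of MZwnt11/slb, and in 96 of 519 members and 1172 of 8343 other barcodes of wildtype, so the high end was fuller among members in wildtype only. Of the members, 0 in MZwnt11/slb and 1 in wildtype had fewer than 1000 UMIs. After thinning, the median number of genes was 1409 in members and 1388 in other barcodes of MZwnt11/slb, and 1428 in members and 1416 in other barcodes of wildtype. No doublet caller was run, and the part of doublets in the higher UMI counts of members was not tested.

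To ask which genes went with the rule, UMIs were summed over members and over other barcodes of each library. A gene with at least 20 UMIs was called when the CPM differed at least 2-fold and the interval of the ratio left out equality. The 5 rule genes were left out of the calls. In MZwnt11/slb, 346 of 13634 genes (2.54%) were called higher in members and 174 (1.28%) lower. In wildtype, 440 of 13908 genes (3.16%) were called higher in members and 207 (1.49%) lower.

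The calls overlapped in part: 158 of 12810 genes measured in both libraries (1.23%) were called higher in both and 49 (0.383%) lower in both. The shared higher calls were 45.7% of the MZwnt11/slb calls and 35.9% of the wildtype calls, and 3 genes were called in opposite directions. Of the 158 genes, 121 had a UMI in at least 10 members of each library, and 12 drew over 50% of their member UMIs from a single barcode in at least 1 library. The median log2 ratio over all genes measured was 0.03 in MZwnt11/slb and 0.00434 in wildtype.

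Genes assigned to the DNA damage response and not used by the rule were among the most raised, although damage itself was not measured. Of a list of 30 such genes in the files, with no rule gene in it, 11 of 25 measured genes were called higher in MZwnt11/slb members and 11 of 26 in wildtype members, with 0 called lower in either. The median log2 ratio of the measured list genes was 0.90 in MZwnt11/slb and 0.53 in wildtype. Summed, the list had 5918 CPM in members and 2477 CPM in other barcodes of MZwnt11/slb (log2 ratio 1.26, 1.23 to 1.29), and 5703 CPM in members and 2709 CPM in other barcodes of wildtype (1.07, 1.05 to 1.099). *ccng1*, which encodes the damage-induced cyclin G1, supplied 49.9% and 53.8% of the list's UMIs in MZwnt11/slb and wildtype members.

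*mdm2*, the ubiquitin ligase gene of the negative feedback, had 319 CPM in members and 18.7 CPM in other barcodes of MZwnt11/slb, a log2 ratio of 4.09 (3.93 to 4.26). In wildtype it had 371 CPM in members and 23.6 CPM in other barcodes, a log2 ratio of 3.98 (3.84 to 4.11). *foxo3b*, a forkhead transcription factor of stress and growth-factor signalling, was close to absent elsewhere. It had 155 CPM in members and 1.64 CPM in other barcodes of MZwnt11/slb (6.56, 6.16 to 6.99), and 115 CPM in members and 2.13 CPM in other barcodes of wildtype (5.76, 5.39 to 6.15).

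*bbc3*, the gene of the pro-apoptotic BH3-only protein Puma, had 96.1 CPM in members and 2.99 CPM in other barcodes of MZwnt11/slb, and 128 CPM in members and 6.64 CPM in other barcodes of wildtype. The corresponding log2 ratios were 5.005 (4.65 to 5.37) in MZwnt11/slb and 4.27 (4.03 to 4.52) in wildtype. *sesn1*, a sestrin gene that the rule did not use, had 161 CPM in members and 10.7 CPM in other barcodes of MZwnt11/slb, and 151 CPM in members and 7.48 CPM in other barcodes of wildtype. Its log2 ratios were 3.90 in MZwnt11/slb and 4.34 in wildtype. A *sesn1* UMI was seen in 40.4% of members and 4.95% of other barcodes in MZwnt11/slb, and in 41.0% and 2.74% in wildtype. Another sestrin was thus raised in the summed members of both libraries, while most single members had no UMI of it.

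The cyclin-dependent kinase inhibitor gene *cdkn1a*, the best-known arrest gene of the pathway, was raised but scarce: its member total was 30 UMIs in MZwnt11/slb and 47 UMIs in wildtype, at log2 ratios of 4.70 in MZwnt11/slb and 3.35 in wildtype. *gadd45aa*, a growth-arrest gene, had log2 ratios of 3.98 in MZwnt11/slb and 2.65 in wildtype. Also called in both libraries were the pore-forming *baxa*, the polo-like kinase *plk3* and *ccng1*, with log2 ratios from 1.06 to 1.61.

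The rest of the list was not raised as a block. *btg2*, an antiproliferative gene, and *pmaip1*, which encodes the BH3-only protein Noxa, had log2 ratios of 0.91 and 0.73 in MZwnt11/slb and of 0.94 and 0.64 in wildtype, below the 2-fold limit. *ddb2* and *xpc*, which act in nucleotide excision repair, had log2 ratios from −0.09 to 0.34 with intervals that held 0. *perp*, a desmosomal gene that also favours apoptosis in mammals, was the only measured list gene whose interval lay below 0 in both libraries, at −0.77 in MZwnt11/slb and −0.66 in wildtype.

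**Figure D1:**
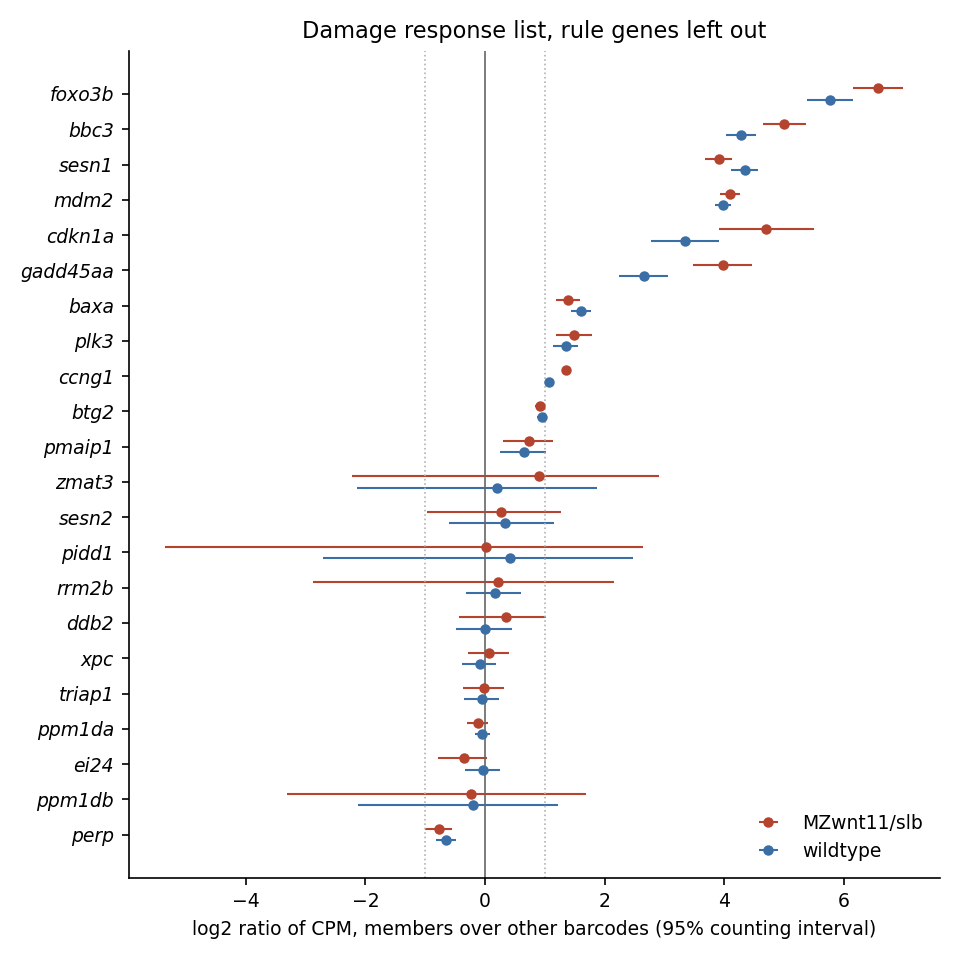
Log2 ratio of CPM in members over other barcodes for genes of the damage response list with at least 20 UMIs in both libraries and a UMI in members of both. MZwnt11/slb is drawn above wildtype, bars are 95% counting intervals, and dotted lines mark 2-fold; *foxo3b* lies at 6.56 and 5.76 and *perp* at −0.77 and −0.66.

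Because members are deeper, detection was also compared in barcodes thinned to 2944 UMIs, which kept 254 and 416 members of MZwnt11/slb and wildtype. *mdm2* had a UMI in 57.9% of members and 5.13% of other barcodes in MZwnt11/slb, and in 59.1% of members and 5.68% of other barcodes in wildtype. *foxo3b* had a UMI in 37.0% of members and 0.333% of other barcodes in MZwnt11/slb, and in 27.9% of members and 0.401% of other barcodes in wildtype. Without thinning *mdm2* had a UMI in 74.6% of members and 8.33% of other barcodes in MZwnt11/slb, and in 68.6% of members and 8.20% of other barcodes in wildtype. The shares in other barcodes set the level that free transcripts and scattered positive cells together give, and the members lay above it for each response gene plotted.

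Detection of several response genes in 1 barcode was counted next. Of *mdm2*, *foxo3b*, *bbc3*, *sesn1*, *cdkn1a* and *gadd45aa*, at least 3 had a UMI in 24.4% (19.3 to 30.2) of thinned MZwnt11/slb members and in 0.121% (0.0523 to 0.239) of other barcodes. In wildtype these shares were 23.1% (19.1 to 27.4) of members and 0.193% (0.0996 to 0.336) of other barcodes. In 22.0% of MZwnt11/slb members and 20.7% of wildtype members 0 of the 6 genes had a UMI, against 90.7% and 89.99% of the other barcodes of MZwnt11/slb and wildtype. A further 29.5% of MZwnt11/slb members and 28.8% of wildtype members had 1 of the 6.

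**Figure D2:**
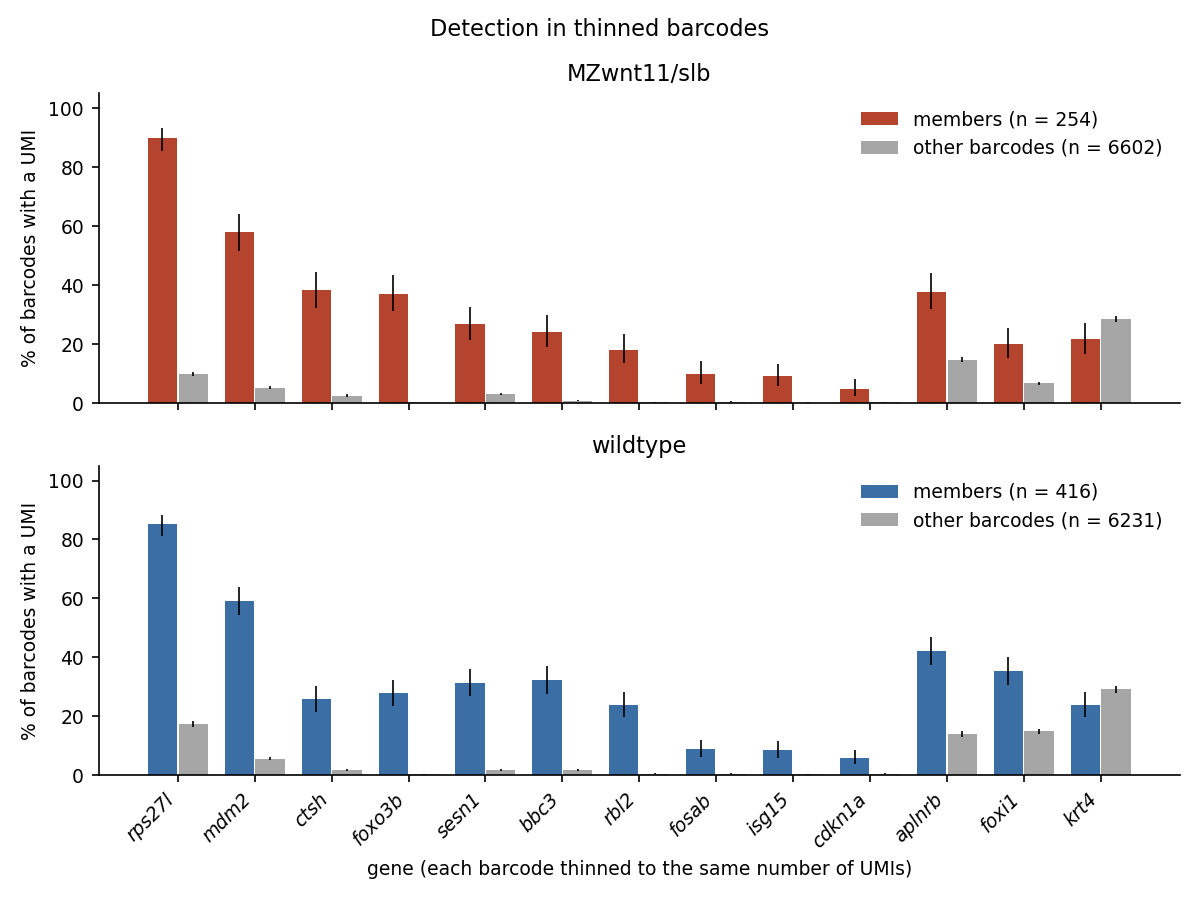
Share of barcodes with at least 1 UMI of a gene after thinning to 2944 UMIs, members left of other barcodes, with 95% binomial intervals; MZwnt11/slb is the upper panel. *mdm2* stands at 57.9% against 5.13% in MZwnt11/slb and at 59.1% against 5.68% in wildtype, whereas *krt4* is the gene with the lower share in members.

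Response levels were graded with the number of rule genes, which none of these genes had helped to set. The rule gene *sesn3* is itself a sestrin of the damage response, and other rule genes such as *phlda3* may belong to it too. The grading is therefore a description and not independent support. *mdm2* had 15.4 CPM in MZwnt11/slb barcodes with 0 rule genes, 51.0 with 1, 257 with 2 and 487 with 3, and 307 CPM in the 16 barcodes with 4 or 5. In wildtype, *mdm2* had 17.4 CPM with 0 rule genes, 65.7 with 1, 300.2 with 2, 379 with 3 and 679 with 4 or 5. *foxo3b* ran over a wider range, from 0.373 CPM with 0 rule genes to 227 with 3 in MZwnt11/slb, and from 0.66 CPM with 0 to 257 with 4 or 5 in wildtype. The barcodes with a single rule gene were therefore intermediate, and some of the cells with this profile lie among the barcodes used for comparison.

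That intermediate level went with *sesn3* in both libraries and with *phlda3* more plainly in wildtype. Barcodes with *sesn3* alone had 59.3 CPM of *mdm2* in MZwnt11/slb and 75.0 CPM in wildtype, and those with *phlda3* alone had 32.6 CPM in MZwnt11/slb and 76.0 CPM in wildtype. Barcodes with *casp8* alone had 15.9 CPM of *mdm2* in MZwnt11/slb and 20.3 CPM in wildtype, close to the level of barcodes with 0 rule genes. The MZwnt11/slb levels were coarse, with 7 *mdm2* UMIs in 34 barcodes for *phlda3* alone and 5 in 52 for *casp8* alone. In wildtype these counts were 20 UMIs in 54 barcodes and 12 UMIs in 123. Among members, those with *phlda3* had 345 CPM of *mdm2* and those without it 224 CPM in MZwnt11/slb, and in wildtype those with it had 400.2 CPM and those without it 291 CPM.

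**Figure D3:**
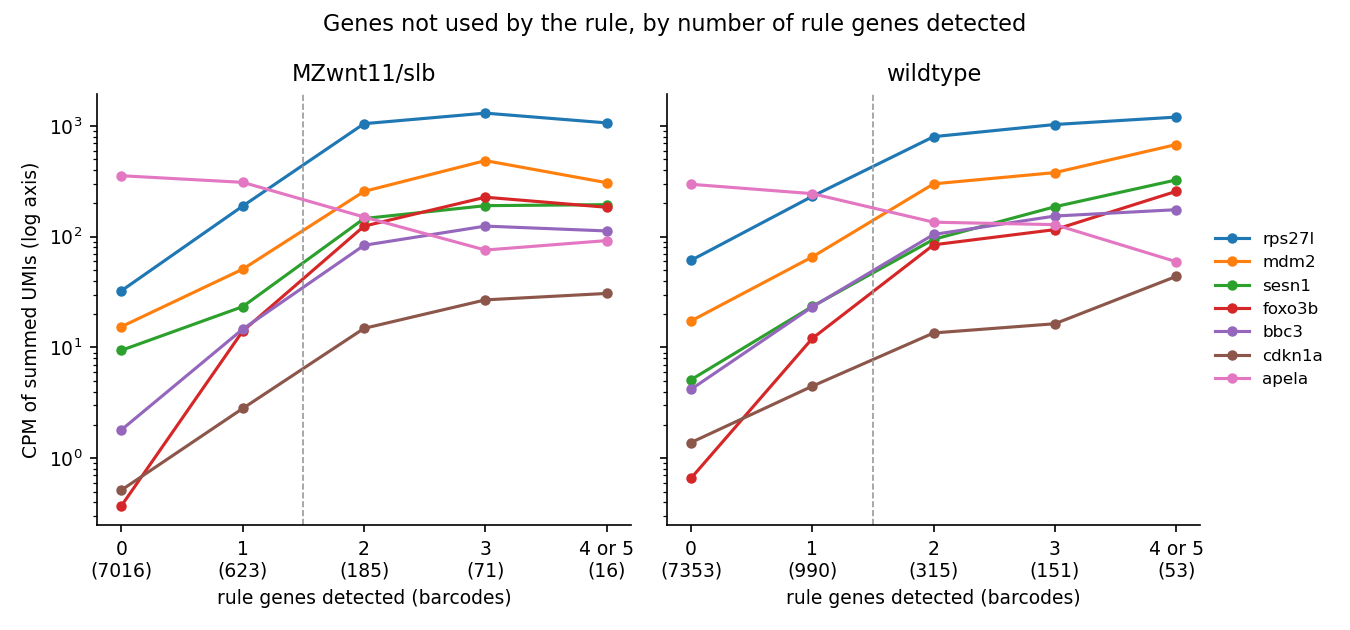
CPM of 7 genes outside the rule (log axis) in barcodes with 0, 1, 2, 3 and 4 or 5 rule genes, with the number of barcodes in parentheses; members lie right of the dashed line and MZwnt11/slb is the left panel. *mdm2* goes up in wildtype to 679 CPM at 4 or 5 rule genes, and *apela* goes down there to 59.5 CPM.

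Beyond the list, 12 genes were named for the highest log2 ratio in the library where it was the smaller of the pair, out of 6003 genes with at least 20 member UMIs in each library. *foxo3b* was among them. The others were *mmrn2b* (a multimerin), si:ch211-239d6.2, *csf1a* (a macrophage colony-stimulating factor ligand), *slc4a2a* (an anion exchanger), *rspo1* (an R-spondin that boosts Wnt signalling), *rbl2* (a retinoblastoma-family pocket protein of quiescent cells), *ankrd50l*, *RNF14*, *bdnf* (a neurotrophin), CABZ01020840.1 and *mat2al* (a methionine adenosyltransferase). Their log2 ratios ran from 4.86 to 9.51 in MZwnt11/slb and from 4.51 to 5.88 in wildtype.

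Most of these genes were rare transcripts. *mmrn2b*, with the highest ratio, rested on 30 UMIs in 25 MZwnt11/slb members and 22 UMIs in 20 wildtype members, against 1 UMI in other barcodes of MZwnt11/slb and 5 in other barcodes of wildtype. *rbl2* was better sampled, with 68.2 CPM in members and 1.01 CPM in other barcodes of MZwnt11/slb, and 84.9 CPM in members and 2.59 CPM in other barcodes of wildtype. CABZ01020840.1 had a UMI in 51.5% of members and 2.40% of other barcodes in MZwnt11/slb, and in 47.0% of members and 2.55% of other barcodes in wildtype. Most of the 12 were seen in few members, such as *csf1a* in 7.72% of MZwnt11/slb and 4.24% of wildtype members and *bdnf* in 8.82% of MZwnt11/slb and 5.97% of wildtype members.

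A further 4 genes were chosen after their values were seen, because they were abundant. *rps27l*, a ribosomal protein paralogue that is induced by DNA damage in mammals, had 1116 CPM in members and 47.0 CPM in other barcodes of MZwnt11/slb, and 920 CPM in members and 83.1 CPM in other barcodes of wildtype. After thinning it had a UMI in 89.8% of members and 9.89% of other barcodes in MZwnt11/slb, and in 85.1% of members and 17.4% of other barcodes in wildtype. The lysosomal protease gene *ctsh*, the insulin-like growth factor gene *igf2a* and the interferon-inducible ubiquitin-like gene *isg15* were also called higher in both libraries. Their log2 ratios were 4.27, 3.69 and 5.68 in MZwnt11/slb and 3.84, 3.49 and 4.34 in wildtype.

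At the other end, the 8 genes with the lowest ratios in both libraries were *apela*, si:ch211-217k17.9, *gna15.1* (a G-protein alpha subunit), *ackr3b* (a scavenging receptor for Cxcl12), zgc:91849, *abcb5* (a transporter), si:ch211-98n17.5 and *lpcat4* (a lysophospholipid acyltransferase). *apela*, which encodes the peptide ligand of the apelin receptor that guides mesendoderm at gastrulation, was the most abundant of them. It had 128 CPM in members and 351 CPM in other barcodes of MZwnt11/slb (−1.46, −1.67 to −1.26), and 124 CPM in members and 291 CPM in other barcodes of wildtype (−1.23, −1.40 to −1.07). A UMI of *apela* was seen in 34.6% of members and 68.0% of other barcodes in MZwnt11/slb, and in 32.6% of members and 58.7% of other barcodes in wildtype.

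The gene for its receptor, *aplnrb*, went the other way. It had 232 CPM in members and 103 CPM in other barcodes of MZwnt11/slb (1.17, 1.01 to 1.33), and 274 CPM in members and 110 CPM in other barcodes of wildtype (1.31, 1.195 to 1.43). It was the only one of 11 measured ventrolateral margin and mesoderm genes called in either library.

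The barcodes carry a stress or apoptosis label, so other stress lists were read in the same way. The apoptosis machinery list held 35 caspase, Bcl2-family and related genes without *casp8*. The pro-apoptotic *bbc3*, *baxa* and *pmaip1* were counted in the damage response list and not in this one. The apoptosis machinery list had 983 CPM in members and 945 CPM in other barcodes of MZwnt11/slb, and 1070 CPM in members and 1042 CPM in other barcodes of wildtype. Its log2 ratios were 0.06 (−0.02 to 0.13) in MZwnt11/slb, with 1 of 24 measured genes called higher and 1 lower, and 0.04 (−0.02 to 0.09) in wildtype, with 1 of 25 called higher and 0 lower. The wildtype call was *bcl2l10*, an anti-apoptotic Bcl2 relative, at 1.44, against 0.30 in MZwnt11/slb. That wildtype value was −0.068 without barcodes that carried yolk syncytial layer or germ cell markers and −0.029 with 3 or more rule genes required. The MZwnt11/slb call was *cflara*, an inhibitor of caspase 8, with 8 UMIs in members.

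Heat shock genes were as flat, at log2 ratios of 0.06 in MZwnt11/slb and 0.04 in wildtype, with 1 of 14 and 0 of 14 called higher. The MZwnt11/slb call was *serpinh1b*, a collagen chaperone. The endoplasmic reticulum and integrated stress response list summed to −0.16 (−0.22 to −0.10) in MZwnt11/slb and −0.09 (−0.14 to −0.05) in wildtype, while the medians of its genes were positive, at 0.12 in MZwnt11/slb and 0.13 in wildtype. *cebpb*, a stress and epidermal transcription factor, was called lower in MZwnt11/slb at −1.12 and lay at −0.85 in wildtype. The oxidative stress list was at 0.03 in MZwnt11/slb and −0.07 in wildtype with intervals that held 0, although its haem oxygenase gene *hmox1a* was called higher in both libraries on 19 member UMIs in MZwnt11/slb and 12 in wildtype. Damage response genes were thus raised in members, while the summed apoptosis machinery, heat shock and unfolded-protein lists had log2 ratios from −0.16 to 0.06. *bbc3* and *baxa*, which favour apoptosis, were counted with the damage response. The rule gene *sesn3* is a sestrin of that response, and other rule genes such as *phlda3* may belong to it too. Members and gene lists were chosen with earlier results of these data known. The raised damage response genes therefore do not bear out the label independently.

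Immediate early genes, the first to be transcribed after a stimulus, were summed at 0.54 (0.37 to 0.71) in MZwnt11/slb and 0.58 (0.44 to 0.72) in wildtype. Of the measured genes, 3 of 9 in MZwnt11/slb and 3 of 10 in wildtype were called higher, and in both libraries they were *fosab*, *fosl1a* and *jun*, which encode subunits of the AP-1 transcription factor. *fosab*, which encodes c-Fos, had 29.7 CPM in members and 1.51 CPM in other barcodes of MZwnt11/slb, and 32.0 CPM in members and 2.04 CPM in other barcodes of wildtype. *dusp1*, *ier2a* and *ier2b* were not called in either library.

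The DNA repair and checkpoint list had 0 of 17 genes called in either direction in each library, with log2 ratios of 0.11 (0.03 to 0.20) in MZwnt11/slb and 0.06 (−0.02 to 0.14) in wildtype. The S phase list was lower, at −0.19 (−0.23 to −0.15) in MZwnt11/slb and −0.11 (−0.14 to −0.08) in wildtype, with 0 of 14 genes called in each. Its replication helicase genes did not move together. *mcm6* and *mcm5* had log2 ratios of −0.91 and −0.88 in MZwnt11/slb and of −0.61 and −0.63 in wildtype, whereas *mcm4* and *mcm7* lay at −0.23 and −0.16 in MZwnt11/slb and at 0.083 and 0.013 in wildtype. *pcna*, the polymerase clamp, was at 0.29 in MZwnt11/slb and 0.22 in wildtype. The G2 and M phase list was at 0.06 in MZwnt11/slb and 0.11 in wildtype with 0 of 16 genes called, and maternal RNAs were at 0.20 in MZwnt11/slb and 0.08 in wildtype with 0 of 8 called.

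**Figure D4:**
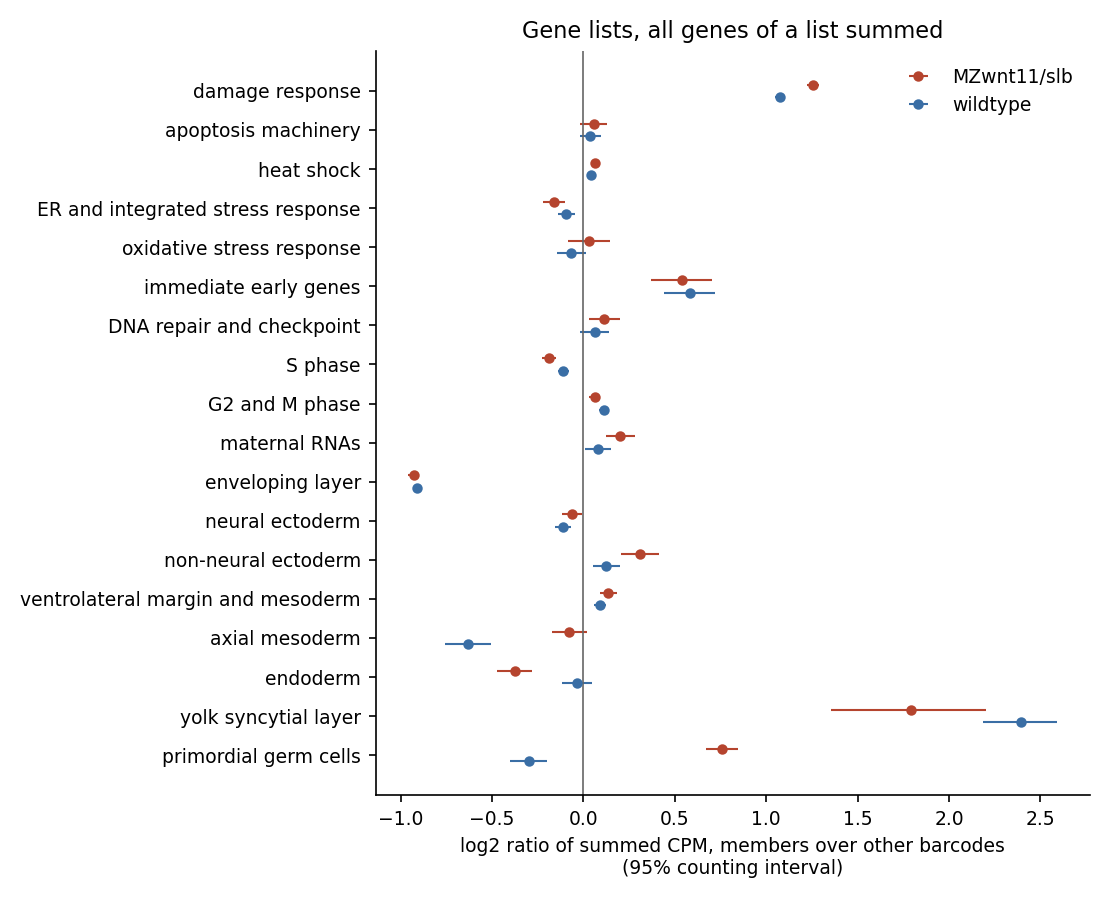
Log2 ratio of summed CPM in members over other barcodes for each process list and, below them, each germ-layer list, with 95% counting intervals and MZwnt11/slb above wildtype. The damage response lies at 1.26 and 1.07, the apoptosis machinery at 0.06 and 0.04, the enveloping layer at −0.93 and −0.91, and primordial germ cells on opposite sides of 0.

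Germ-layer markers were then compared to ask from which parts of the embryo members came. In thinned barcodes, at least 3 ventrolateral margin and mesoderm markers were seen in 39.4% (33.3 to 45.7) of members and 29.9% (28.8 to 31.0) of other barcodes in MZwnt11/slb, and in 34.1% (29.6 to 38.9) of members and 27.8% (26.7 to 29.0) of other barcodes in wildtype. At least 3 neural ectoderm markers were seen in 33.5% of members and 48.3% of other barcodes in MZwnt11/slb, and in 27.9% of members and 37.6% of other barcodes in wildtype. Members were thus found with the markers of every broad territory, with a lower share of neural and a higher share of margin profiles than the other barcodes by this count of genes. Unthinned, the margin shares were 49.3% of members and 35.1% of other barcodes in MZwnt11/slb, and 39.7% of members and 31.6% of other barcodes in wildtype. The margin markers counted include *aplnrb*, the gene of the list that was called higher. Summed, the margin list lay at only 0.14 (0.09 to 0.18) in MZwnt11/slb and 0.09 (0.06 to 0.12) in wildtype. The medians of its genes were 0.11 in MZwnt11/slb and −0.06 in wildtype.

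The enveloping layer is the flat, keratin-rich sheet that covers the blastoderm. Its list summed to 5513 CPM in members and 10494 CPM in other barcodes of MZwnt11/slb (−0.93, −0.96 to −0.90), and to 6363 CPM in members and 11936 CPM in other barcodes of wildtype (−0.91, −0.93 to −0.89). Only *anxa1a*, an annexin, was called higher, at 2.13 in MZwnt11/slb and 2.59 in wildtype, and it was also a leading gene of the MZwnt11/slb cluster with most yolk syncytial layer markers. *grhl3*, a grainyhead factor of epidermal barriers, was called lower at −1.13 in MZwnt11/slb and −1.05 in wildtype.

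The neural ectoderm list summed to −0.06 in MZwnt11/slb and −0.11 in wildtype, with medians of −0.53 and −0.66, and 0 of its 9 genes were called, with the neural progenitor factor *sox2* at −0.87 in MZwnt11/slb and −0.82 in wildtype and its relative *sox3* at 0.09 in MZwnt11/slb and 0.01 in wildtype. In the non-neural ectoderm list *foxi1*, a forkhead factor of ventral ectoderm, was called higher in both libraries. It had 99.2 CPM in members and 28.4 CPM in other barcodes of MZwnt11/slb (1.80, 1.55 to 2.05), and 145 CPM in members and 68.5 CPM in other barcodes of wildtype (1.08, 0.92 to 1.24). *tfap2a*, expressed in the same territory, lay at −0.87 in MZwnt11/slb and was called lower at −1.04 in wildtype, so the list did not move together. Summed, the non-neural ectoderm list was higher in members, at 0.31 (0.21 to 0.41) in MZwnt11/slb and 0.13 (0.05 to 0.20) in wildtype. The medians of its genes were −0.32 in MZwnt11/slb and 0.23 in wildtype. *tfap2c* supplied 48.2% and 45.9% of its UMIs in MZwnt11/slb and wildtype members.

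Dorsal and endodermal markers had unlike values in the libraries, a difference that was not tested. The axial mesoderm list was at −0.08 (−0.17 to 0.02) in MZwnt11/slb and at −0.63 (−0.76 to −0.51) in wildtype, where 4 of 9 genes were called lower. In wildtype the prechordal plate genes *frzb* and *gsc* lay at −2.27 and −1.11, against −0.07 and 0.29 in MZwnt11/slb. The wildtype values rested on 11 *frzb* UMIs in 9 members and on 20 *gsc* UMIs in 9 members, with 8 of the latter in 1 barcode. In MZwnt11/slb members 1 barcode held 27.6% of 76 *gsc* UMIs and 1 held 16.7% of 72 *frzb* UMIs. The endoderm list was at −0.38 (−0.47 to −0.28) in MZwnt11/slb and −0.03 (−0.12 to 0.05) in wildtype, and *sox32*, the endoderm determinant, lay at −0.49 in MZwnt11/slb and 0.53 in wildtype. *sox32* and *gata6* are also transcribed in the yolk syncytial layer, and without barcodes that carry its markers the wildtype value of *sox32* was −0.26 and that of the endoderm list −0.47.

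The yolk syncytial layer, the nucleated sheet of yolk beneath the blastoderm, was the germ-layer list most raised in members. It summed to 34.8 CPM in members and 10.0 CPM in other barcodes of MZwnt11/slb (1.79, 1.36 to 2.20), and to 109 CPM in members and 20.7 CPM in other barcodes of wildtype (2.39, 2.19 to 2.59). It was highest in barcodes with 1 or 2 rule genes. In MZwnt11/slb the list had 2.72 CPM with 0 rule genes, 81.9 with 1, 50.2 with 2, 2.44 with 3 and 0 with 4 or 5. In wildtype it had 2.74 CPM with 0 rule genes, 143 with 1, 175 with 2, 29.0 with 3 and 0 with 4 or 5. The list was carried by few barcodes: 3 MZwnt11/slb and 30 wildtype members had at least 2 of its UMIs. *hnf4a*, a hepatocyte nuclear factor of that layer, had 703 CPM in those 30 wildtype members and 1.65 CPM in the 483 wildtype members with neither yolk syncytial layer nor germ cell markers.

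*sesn3* was itself high in this layer. Other barcodes with at least 2 of its marker UMIs had 1036 CPM of *sesn3* in MZwnt11/slb and 2101 CPM in wildtype, over 57 MZwnt11/slb and 102 wildtype barcodes. The 30 wildtype members with such markers had 165 CPM of *phlda3*, 321 CPM of *mdm2* and 5206 CPM of the damage response list. The 102 other barcodes with such markers had 109 CPM of *mdm2* and 3672 CPM of the damage response list. Leaving out all barcodes with yolk syncytial layer or germ cell markers changed the share of members to 3.42% in MZwnt11/slb and 5.60% in wildtype, and the damage response list ratios to 1.26 in MZwnt11/slb and 1.09 in wildtype.

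With these barcodes left out, 297 genes were called higher and 170 lower in MZwnt11/slb members, 294 higher and 215 lower in wildtype members, and 134 higher in both libraries. The count of higher calls in wildtype was the one that changed most. The endoderm, axial mesoderm and yolk syncytial layer lists of wildtype then lay at −0.47, −1.02 and 0.29. The yolk syncytial layer list set the filter, so its value is a description.

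Primordial germ cell markers pointed in opposite directions. *nanos3*, an RNA-binding germ cell factor, had 167 CPM in members and 79.2 CPM in other barcodes of MZwnt11/slb (1.08, 0.89 to 1.26), and 8.10 CPM in members and 28.4 CPM in other barcodes of wildtype (−1.81, −2.51 to −1.19). The MZwnt11/slb level came from few barcodes, since 79.6% of its 265 member UMIs lay in 1 barcode. Of all MZwnt11/slb members, 4 had at least 2 UMIs of *nanos3*, *dnd1* and *tdrd7a* together, and the highest of them held 459 and the next 63. Without all barcodes with yolk syncytial layer or germ cell markers, *nanos3* lay at −0.31 in MZwnt11/slb and 0.39 in wildtype, with intervals that held 0. The filter itself counted *nanos3*, so these values are a description.

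Clustering offered a view that did not use the rule. Each library was clustered by itself, without the 5 rule genes and without the damage response list. In MZwnt11/slb 1 of 15 clusters, led by *rbl2*, *phlda2* and *grasp*, held 175 members among its 218 barcodes, which was 80.3% of the cluster and 64.3% of all members. In wildtype 1 of 14 clusters, led by *sp6*, zgc:92360 and *slc4a2a* and also by *rbl2* and *grasp*, held 269 members among its 337 barcodes, which was 79.8% of the cluster and 51.8% of all members. No germ-layer list named either cluster, since no gene of the best-matched list was among its leading genes. That list was non-neural ectoderm in both libraries, with *foxi1*, *tfap2c* and *gata2a* raised in each cluster. At resolutions of 0.5 and 2 the cluster with most members held 63.2% and 65.8% of MZwnt11/slb members and 52.6% and 52.0% of wildtype members.

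The remaining 43 MZwnt11/slb and 68 wildtype barcodes of these clusters had missed the rule narrowly. All 43 in MZwnt11/slb and 67 of the 68 in wildtype had 1 rule gene, which was *sesn3* in 41 MZwnt11/slb and 65 wildtype barcodes. Their damage response list stood at 6048 CPM in MZwnt11/slb and 6436 CPM in wildtype. Members of the same clusters had 6904 CPM in MZwnt11/slb and 7099 CPM in wildtype. The clustering left the list out but used other genes raised in members. Such genes were *rbl2*, among the leading genes of both clusters, and *rps27l*, among those of the MZwnt11/slb cluster. The list levels inside are therefore a description and not independent support. Of members with 4 or 5 rule genes, 87.5% in MZwnt11/slb and 84.9% in wildtype lay inside, against 54.6% and 39.7% of MZwnt11/slb and wildtype members with 2.

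Members inside these clusters had little enveloping layer signal. The enveloping layer list stood at 382 CPM in MZwnt11/slb and 362 CPM in wildtype members inside, against 12251 CPM in MZwnt11/slb and 11227 CPM in wildtype members outside. Other barcodes outside had 10543 CPM in MZwnt11/slb and 12016 CPM in wildtype. The lower keratin level of members as a whole thus lay in the clustered ones, and it is a description, since these genes took part in the clustering. Neural ectoderm markers were at 1996 CPM in MZwnt11/slb and 1897 CPM in wildtype members inside, against 1884 CPM and 1803 CPM in other barcodes outside. Margin and mesoderm markers were at 2284 CPM in MZwnt11/slb and 2646 CPM in wildtype members inside, below the 2353 and 2946 CPM of other barcodes outside. Members outside had 2985 CPM of these markers in MZwnt11/slb and 3525 CPM in wildtype. *foxi1* was at 104 CPM in MZwnt11/slb and 199.9 CPM in wildtype members inside, and at 28.1 CPM and 67.8 CPM in other barcodes outside.

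**Figure D5:**
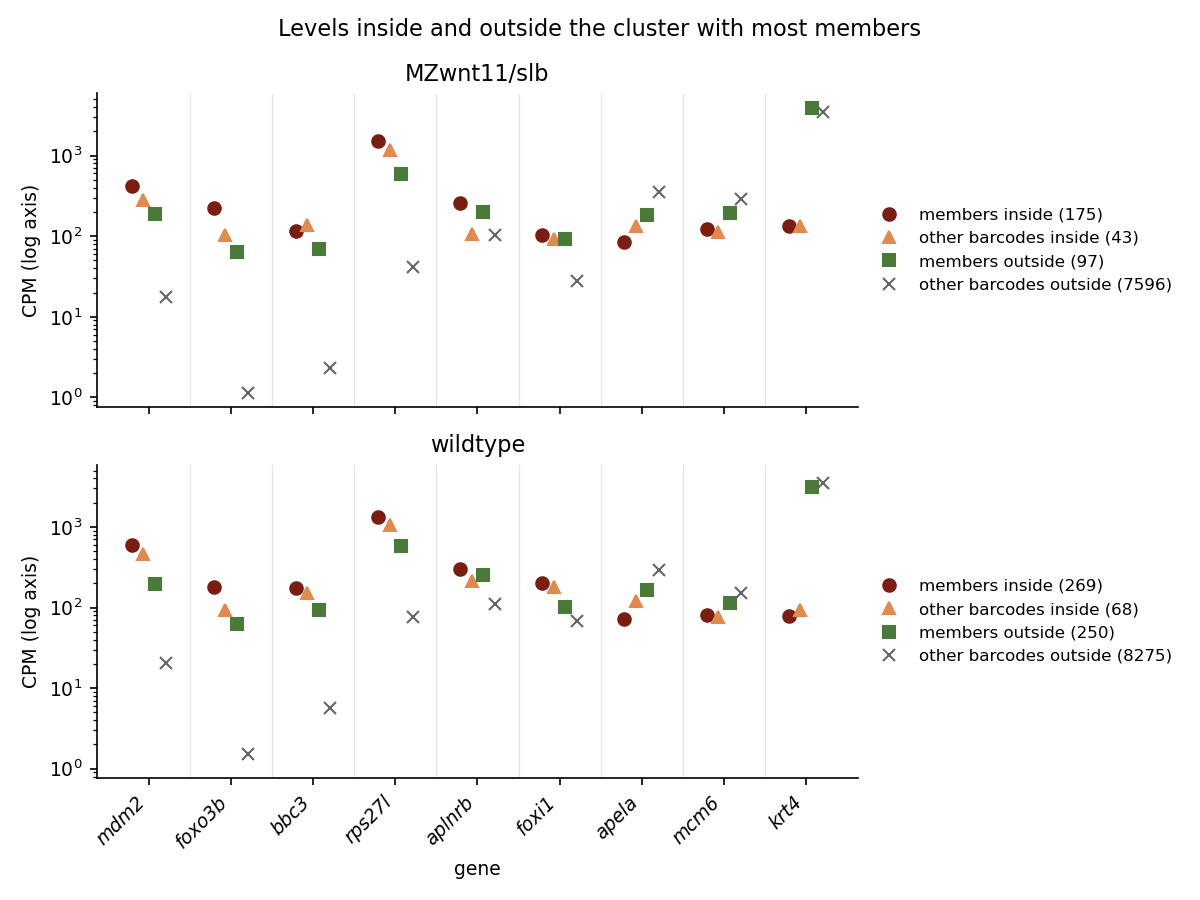
CPM (log axis) of 9 genes in members and other barcodes inside and outside the cluster that held most members, with the number of barcodes in parentheses; MZwnt11/slb is the upper panel. Inside, *krt4* lies at 134 and 77.6 CPM in members of MZwnt11/slb and wildtype, against 3923 and 3163 CPM in members outside.

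Members outside, 97 in MZwnt11/slb and 250 in wildtype, were scattered over the other clusters. Among clusters with at least 5 members, the damage response list was higher in the members than in the other barcodes of the same cluster, with an interval above 0, in 9 of 10 MZwnt11/slb clusters and in 11 of 11 wildtype clusters. The log2 ratios ran from 0.26 to 1.36 in MZwnt11/slb and from 0.34 to 0.92 in wildtype. Of the clusters led by the paraxial mesoderm genes *msgn1* and *mespaa*, those of MZwnt11/slb had ratios of 1.36 over 17 members and 0.45 over 12 members, and that of wildtype had 0.79 over 57 members. The wildtype cluster that matched the yolk syncytial layer held the densest scatter, with 32 of 131 barcodes (24.4%) being members.

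Levels of members were also compared between the genotypes. In MZwnt11/slb members 429 of 8709 genes (4.93%) were called higher than in wildtype members and 762 (8.75%) lower. Of these 1191 genes, 1126 had an interval on the same side of 0 when the other barcodes of the libraries were compared, so most of the calls followed the libraries as a whole. The damage response list differed little between members, at a log2 ratio of 0.05 (0.02 to 0.09), and lay at −0.13 (−0.14 to −0.12) in other barcodes.

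The genes whose ratio of members to other barcodes differed most between the libraries did not all differ in the same way. *phlda2*, an imprinting-cluster relative of *phlda3* in mammals, had 39.8 CPM in members and 0.468 CPM in other barcodes of MZwnt11/slb, and 27.4 CPM in members and 2.04 CPM in other barcodes of wildtype. The cholesterol transporter gene *abca1a* had 56.2 CPM in members and 2.52 CPM in other barcodes of MZwnt11/slb, and 58.6 CPM in members and 11.2 CPM in other barcodes of wildtype. The transferrin gene *tfa* had 36.0 CPM in members and 1.90 CPM in other barcodes of MZwnt11/slb, and 44.8 CPM in members and 9.11 CPM in other barcodes of wildtype. For *abca1a* and *tfa* the levels in members were close, and it was the other barcodes that differed.

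For *afp4*, *ctsll* and *slc7a8a* it was the members that differed more. *afp4*, an antifreeze-protein-like gene that is annotated under several identifiers, so that reads may be split between copies, and that also led the wildtype cluster of the yolk syncytial layer, had 75.2 CPM in MZwnt11/slb members and 432 CPM in wildtype members. The cathepsin L-like gene *ctsll* had 45.5 CPM in MZwnt11/slb and 265 CPM in wildtype members, and the amino acid transporter gene *slc7a8a* 92.3 CPM in MZwnt11/slb and 387 CPM in wildtype members. Both *afp4* and *ctsll* were among the leading genes of the MZwnt11/slb cluster with most yolk syncytial layer markers. *wnk4b*, a kinase of ion transport, was raised in members of both libraries, at 1.68 in MZwnt11/slb and 2.91 in wildtype. With 3 or more rule genes required, *afp4*, *ctsll* and *slc7a8a* lay at −0.15, −0.25 and −0.75 in wildtype, and *slc7a8a* at −3.58 in MZwnt11/slb. In MZwnt11/slb 1 barcode held 43.8%, 47.2% and 44.5% of the member UMIs of *afp4*, *ctsll* and *slc7a8a*. The eighth gene, si:ch211-241j12.3, had 83.6% of its MZwnt11/slb member UMIs in 1 barcode.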

How the data were processed

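Droplet 3′ libraries (10x Genomics, v3.1 chemistry) were made from ACME-fixed, sorted cells of whole shield-stage embryos, 1 library per genotype. The deposited files hold raw UMI counts per gene and barcode, written by Cell Ranger 6.1.1 according to the file headers (the study's methods name a later version, and whether intronic reads were counted is not stated), and GRCz11 is the genome named in the submitters' processing notes, while the sources used here do not give the annotation release. All deposited barcodes and all 27597 genes were kept, no doublets were removed, 1 gene of the damage response list is counted in the list but not reported here, and 548 symbols stand for more than 1 identifier. The members and gene lists were chosen with earlier results of these data known.

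UMIs were summed over members and over other barcodes of each library and divided by their total. Ratios carry exact conditional binomial intervals and shares carry exact Clopper-Pearson intervals, both at 95% and covering counting error only. A count of 0 was set to 3 counts for a call. Genes needed at least 20 UMIs and a 2-fold difference. Thinning drew 2944 UMIs per barcode without replacement (seed 11). Lineage barcodes had at least 2 UMIs of yolk syncytial layer or of germ cell markers. Each library was clustered with Scanpy 1.11.5 (Leiden, 30 principal components residualised on depth, 20 neighbours, 36 identifiers of the rule and the damage response list left out). Interval code was tested on simulated data. Python 3.11.15, NumPy 2.4.6, SciPy 1.17.1 and pandas 2.3.3 were used.

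Named genes were the 5 rule genes, the 12 highest and 8 lowest by the less extreme of the ratios in the libraries, among genes with 20 member UMIs in each and without mitochondrial genes, up to 4 highest and 2 lowest of each list, and the 4 largest differences between libraries in each direction among genes with 50 member UMIs in each. Alternatives changed the rule, thinning, barcode filters, scaling, minimum count, per-barcode means and the barcodes compared.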

Additional observations from a re-analysis of the deposited data

Results flagged for a closer look

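For some genes the log2 ratio of members to other barcodes had opposite signs in the libraries, each with a counting interval that left out 0. None of these differences between libraries was tested, and 1 library per genotype gives no spread between embryos. The endoderm determinant *sox32* lay at −0.49 in MZwnt11/slb and 0.53 in wildtype, where it was −0.26 without barcodes that carried yolk syncytial layer or germ cell markers, −0.82 with thinned barcodes and −1.79 with 3 or more rule genes required. The germ cell RNA-binding gene *nanos3* lay at 1.08 in MZwnt11/slb and −1.81 in wildtype. *tdrd7a*, a Tudor-domain gene of germ granules, lay at 1.92 in MZwnt11/slb and −0.67 in wildtype, and the summed primordial germ cell list at 0.76 in MZwnt11/slb and −0.30 in wildtype. si:ch211-241j12.3, which was among the leading genes of the MZwnt11/slb cluster with germ cell markers, lay at 1.31 in MZwnt11/slb and −0.60 in wildtype. Without the barcodes that carried yolk syncytial layer or germ cell markers, the wildtype values of *nanos3* and *tdrd7a* were 0.39 and 0.12. Those of *nanos3* and si:ch211-241j12.3 in MZwnt11/slb were −0.31 and −0.38. The germ cell list was −0.055 in MZwnt11/slb and 0.079 in wildtype. All of these intervals held 0. The filter counted *nanos3* and *tdrd7a*, which are in the germ cell list, so these values are a description. In MZwnt11/slb members 1 barcode held 79.6% of the UMIs of *nanos3*, 83.0% of those of *tdrd7a* and 83.6% of those of si:ch211-241j12.3.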

How the results depend on the processing

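With 3 or more rule genes required, the share of members was 1.0997% in MZwnt11/slb and 2.30% in wildtype, and applying the rule to thinned barcodes gave 2.55% and 4.30%. The damage response list ratio ran from 1.21 to 1.49 in MZwnt11/slb and from 1.05 to 1.26 in wildtype: with 3 or more rule genes it was 1.41 in MZwnt11/slb and 1.19 in wildtype, with thinned barcodes 1.49 and 1.26, with the mean of per-barcode CPM 1.38 and 1.15, and in MZwnt11/slb it was 1.21 with barcodes under 1000 UMIs or over 10% mitochondrial UMIs left out and likewise 1.21 with median-of-ratios scaling. Those ratios were of the summed list. The median log2 ratio over its measured genes ran more widely, from 0.34 to 1.45 in MZwnt11/slb and from 0.50 to 1.11 in wildtype. With at least 100 UMIs per gene, higher calls numbered 187 in MZwnt11/slb, 220 in wildtype and 94 in both. Lower calls numbered 296 in MZwnt11/slb with 3 or more rule genes, 319 in wildtype with thinned barcodes and 393 in wildtype with other barcodes weighted to the depth of members, and in both libraries 98, 112 and 131 under these settings. Between members of the genotypes, higher calls numbered 264 with 3 or more rule genes, 270 with thinned barcodes, 686 with no minimum count and 112 with at least 100 UMIs, and lower calls 472, 394 and 217 with 3 or more rule genes, thinned barcodes and at least 100 UMIs.

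The settings that left out barcodes with yolk syncytial layer or germ cell UMIs, or weighted other barcodes to member depth, were chosen after the data were seen. Without the lineage barcodes the germ cell list changed sign, to −0.055 (−0.20 to 0.087) in MZwnt11/slb and 0.079 (−0.031 to 0.19) in wildtype. The yolk syncytial layer list was 0.68 (−0.56 to 1.71) in MZwnt11/slb and 0.29 (−0.81 to 1.22) in wildtype. All of these intervals held 0. Markers of both lists set the filter, so these values are a description. Without the lineage barcodes the wildtype enveloping layer was −0.88, neural ectoderm −0.06, margin 0.13, axial mesoderm −1.02 and endoderm −0.47. With weighting, the enveloping layer was −1.06 in MZwnt11/slb, and in wildtype it was −1.18, non-neural ectoderm 0.045, margin 0.13 and the yolk syncytial layer 2.66.

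Of 272 ratios, which were those of single named genes and the damage response list median of each library, 203 kept their sign under every setting run. The reversals given next cover only the 22 results whose interval in the main setting left out 0. With 3 or more rule genes the sign reversed in MZwnt11/slb for si:ch211-241j12.3 (−1.70), *slc7a8a* (−3.58), *diabloa* (−0.89), *chac1* (−0.013) and *ddx4* (−0.11), and in wildtype for *afp4* (−0.15), *ctsll* (−0.25), *slc7a8a* (−0.75), *bcl2l10* (−0.029), *xbp1* (−0.022), *sox32* (−1.79), *gata6* (−0.53), *mixl1* (−0.14), *mxtx1* (−0.43), *slc26a1* (−0.16) and *apoa1b* (−2.41). With thinned barcodes it reversed for *chrd* (0.018) in MZwnt11/slb and for *sox32* (−0.82) and *mixl1* (−0.47) in wildtype. Without lineage barcodes it reversed in MZwnt11/slb for si:ch211-241j12.3 (−0.38), *ddx4* (−0.059), *nanos3* (−0.31) and *gra* (−0.035), and in wildtype for *bcl2l10* (−0.068), *diabloa* (−0.032), *xbp1* (−0.073), *sox32* (−0.26), *gata6* (−0.052), *nanos3* (0.39) and *tdrd7a* (0.12). Among these values without lineage barcodes only the wildtype *sox32* interval left out 0, and *nanos3* and *tdrd7a* were counted by the filter itself. The causes of these reversals were not tested.

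No paired analysis was possible because each genotype had 1 library, and for the same reason leaving out a library in turn was not done. Genotype, clutch and library cannot be told apart, intervals cover counting error only, and genes with few member UMIs were measured coarsely. Doublets were not removed, and barcodes with 1 rule gene included some inside the clusters that held most members.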

Other observations

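Members that carried *chrna4b* numbered 7 in MZwnt11/slb and 65 in wildtype. In wildtype the 65 had 560.0 CPM of *mdm2* and 6906 CPM of the damage response list, against 336 and 5479 CPM in the 454 members without *chrna4b*. In MZwnt11/slb the 7 had 388 CPM of *mdm2* and 6936 CPM of the damage response list, against 317 and 5887 CPM in the 265 members without it. Whether these groups of members differ beyond counting error was not tested.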
